A study of Mus musculus with 18 samples.

Results

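Cxcl12, its receptors Cxcr4 and Ackr3 and its protease Dpp4 were followed by RNA sequencing of epididymal white adipose tissue (eWAT), the fat pad beside the male reproductive tract. These 4 genes, of 16452 counted, were taken by name. Cxcl12 was picked because earlier results of the same libraries had placed it lower with let-7d, so its let-7d against control values are a description and carry no test. The mice were wild-type C57BL/6 males of a generation called Fm, and the groups differ by what the zygote behind them had received. There were 6 let-7d libraries (treatment label IVF_Let7d), 6 let-7e libraries (IVF_Let7e) and 5 control libraries (IVF_NegativeControl). All groups share in vitro fertilisation in the treatment label, chow until week 6 and then the diet labelled LFD until week 15; an age of 24 weeks is also labelled, and which applies at sampling is not settled. The labels do not tell how many fathers or litters stand behind a group, so p-values measure the spread between these libraries. Control replicate 5 is described in the labels and not analysed here.

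CXCL12 is a chemokine secreted by stromal cells, which in fat include adipocyte progenitors, pericytes and endothelium. It holds blood and immune cells in tissues and guides the growth of vessels. CXCR4 is a G protein-coupled receptor that answers CXCL12 with migration, while ACKR3 is an atypical receptor that binds and internalises the chemokine without classical G protein signalling and so clears it. DPP4 is a membrane peptidase that cuts the chemokine's amino terminus and inactivates it, and in mouse fat Dpp4 also marks interstitial progenitor cells and mesothelium. MicroRNAs of the let-7 family bind messenger RNAs mainly through the seed at their 5′ end.

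The injected microRNAs are shown first because both share a seed that can be looked for in the 4 genes. The mature 5p strands, from RefSeq (GRCm38.p6), have their seed, bases 2 to 8, in capitals.
mmu-let-7d-5p: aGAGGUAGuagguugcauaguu
mmu-let-7e-5p: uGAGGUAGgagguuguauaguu
Read from let-7d to let-7e and counted from 1 at the 5′ end, they differ by A1U, U9G and C16U, all outside the seed. The let-7d strand lies at chr13:48536078-48536099 on the minus strand and the let-7e strand at chr17:17830366-17830387 on the plus strand. The DNA letters that pair with the seed, CTACCTC on the strand of the transcript, were searched for in annotated 3′ untranslated regions (GENCODE M21, GRCm38), and 1671 of 14201 measured genes with such a region held at least 1 match (11.8%). The pairing to bases 2 to 7 alone, TACCTC, which every longer match contains, was found in 4053 of these genes (28.5%).

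Among the 4 genes, Cxcl12 held 1 seed match. It is present in 2 of its 3 coding transcripts, at base 3488 of a 3′ region of 5188 bases in ENSMUST00000073043.4 and at base 1069 of 2768 in ENSMUST00000112871.7. The third, ENSMUST00000112866.7, has a 3′ region of 1487 bases without the match. Both matches are the same stretch of the genome, the 7 bases at chr6:117179667-117179673 on the plus strand, printed here in capitals with their surroundings because the match separates the isoforms.
Cxcl12 3′ site: ggtgaactacCTACCTCtcctcaag
The annotated 3′ regions of Cxcr4 (644 bases), Ackr3 (1842 bases) and Dpp4 (2545 bases) hold no match of either length. The deposited counts are summed per gene, so Cxcl12 isoforms with and without the match cannot be told apart, and a match is a description of letters and no evidence of binding.

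In the count table Cxcl12 is ENSMUSG00000061353.11 (chr6:117168535-117181367, plus strand), Cxcr4 is ENSMUSG00000045382.6 (chr1:128588199-128592293, minus strand), Ackr3 is ENSMUSG00000044337.5 (chr1:90203980-90216751, plus strand) and Dpp4 is ENSMUSG00000035000.8 (chr2:62330073-62412231, minus strand). Dpp4 overlaps the antisense gene Gm13561, and the sources used here do not say whether reads were counted by strand, so reads of the pair cannot be told apart. Levels are given as CPM, the reads of a gene as a share of its library, after TMM scaling, and comparisons between genes as CPM per kilobase of exon.

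Total counts per library ran from 12717365 to 28972306. The adipocyte list of 10 genes, among them Adipoq and Plin1, had a mean level of 10.58 to 11.57 log2 CPM in all 17 libraries, which fits the tissue label. By their identifiers 4 libraries are early (the first 2 replicates of each let-7 group) and 13 late, the 5 controls among them, so the series was a term in every fit unless stated. In 4 libraries transcripts of neighbouring organs or epithelium stood high. Control 3 had 17470 summed CPM of 8 vas deferens, epididymis and testis genes and control 6 had 1067, where the median library had 16.8. Let-7d 1 had 609.3 and let-7d 5 had 260.3 summed CPM of 7 epithelial genes, where the median library had 9.77. Fits and correlations were repeated without these 4 libraries.

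The order of the levels per kilobase, averaged over the 17 libraries, was Cxcl12 at 30.5, Ackr3 at 16.7, Cxcr4 at 6.22 and Dpp4 at 4.81 CPM per kilobase of the longest transcript, and the order was the same with the union of exons as the length. Cxcl12 and Ackr3, the neighbours at the upper end, changed places in let-7d 1, 2 and 6, where Ackr3 stood higher per kilobase of the union of exons. Per kilobase of the longest transcript, let-7d 2 kept the order, at 21.04 for Cxcl12 and 19.37 for Ackr3. Ackr3 stood above Cxcr4 per kilobase in 17 of 17 libraries, so the transcript of the scavenging receptor was the more abundant of the receptor pair in every library. Cxcr4 and Dpp4, the neighbours at the lower end, did not keep one order: their ranges over libraries overlapped.

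Cxcl12, the ligand, had its low values in the let-7d libraries. It stood between 117.6 and 162.9 CPM there, with a median of 131.0. Let-7e libraries ran from 133.2 to 230.2 CPM around a median of 180.9, against 188.2, 182.5, 201.8, 202.9 and 257.6 CPM in controls 1, 2, 3, 4 and 6. Each of the 6 let-7d libraries lay below each of the 5 controls, a separation that 56 of the 16452 genes showed in the same direction (0.340%) and from which nothing is read, since Cxcl12 was chosen for it. Let-7e libraries overlapped both other groups: 3 of the 6 lay below the lowest control and 4 of the 6 above the highest let-7d library. The group means were 136 ± 19.3 CPM with let-7d, 179 ± 33.9 CPM with let-7e and 207 ± 29.8 CPM in controls (SD, n = 6, 6 and 5). In a bulk tissue, fewer cells that make a transcript and less of it per cell cannot be told apart.

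The spread of Cxcl12 within the let-7 groups followed the identifier series. The early libraries were at 117.6 and 118.4 CPM with let-7d and at 133.2 and 152.0 CPM with let-7e, the lowest values of their groups. In the late libraries Cxcl12 averaged 144 ± 17.7 CPM with let-7d, 197 ± 23.7 CPM with let-7e (SD, n = 4 each) and 207 ± 29.8 CPM in the controls, all of which are late. Fitted with the series as a term, the log2 fold change was -0.49 (SE 0.111) for let-7d against control, -0.10 (SE 0.110) for let-7e against control and 0.39 (SE 0.100) for let-7e against let-7d. Early against late, the series term itself, gave -0.38 (SE 0.107), a value that was -0.10 with the replicate number as a block. In the blocked fit, let-7 libraries of the same number share a series, so that value rests on their differences from same-numbered controls. No p is given for Cxcl12, since these comparisons share the libraries on which it was picked. Without the 4 libraries that hold transcripts of other organs or epithelium, the values were -0.41 for let-7d and 0.03 for let-7e against control. Late libraries alone gave -0.52 and -0.07.

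**Figure D1:**
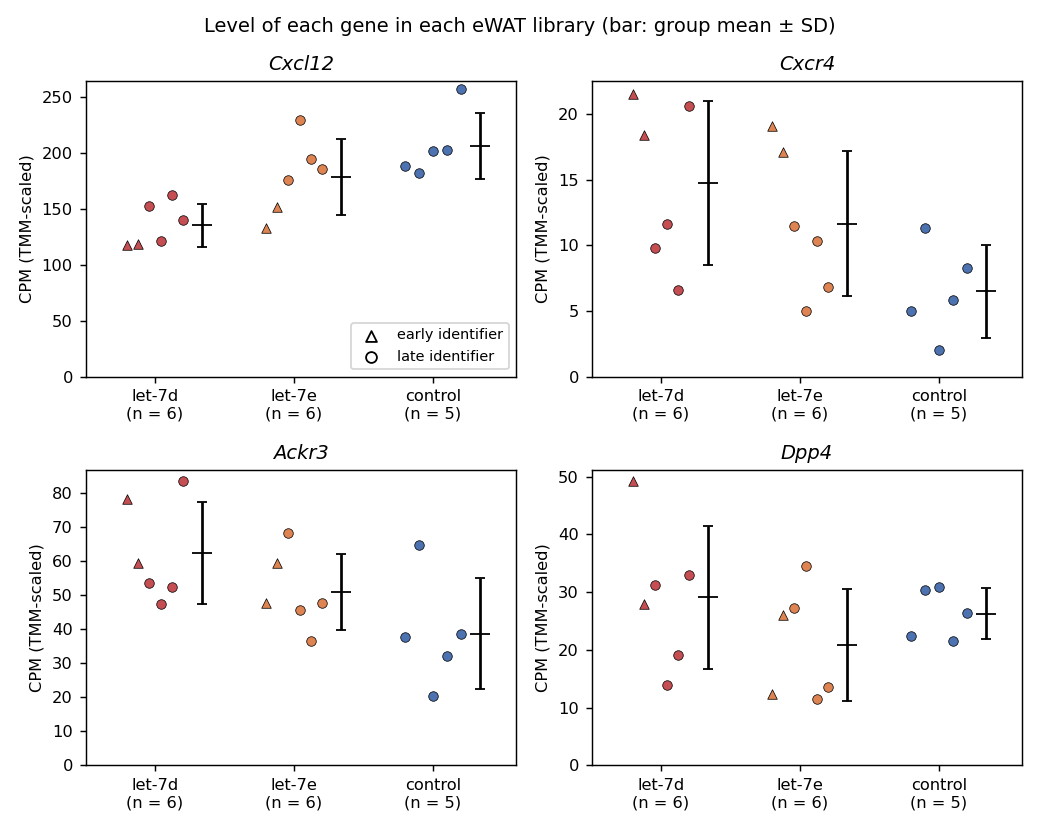
Level of each gene in each library, in CPM on a vertical axis that starts at 0, for let-7d, let-7e and control libraries from left to right; each symbol is a library, a triangle if early and a circle if late, and bars show the group mean with its SD. The let-7d points of Cxcl12 lie at 117.6 to 162.9 CPM and the control points at 182.5 to 257.6 CPM, while the groups overlap for Cxcr4, Ackr3 and Dpp4.

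Cxcr4, the signalling receptor, leaned the other way, with wide overlap. It ran from 6.62 to 21.5 CPM in let-7d libraries (median 15.0) and from 5.03 to 19.1 CPM in let-7e libraries (median 10.9), against 5.0, 11.3, 2.03, 5.80 and 8.30 CPM in controls 1, 2, 3, 4 and 6. All 6 let-7d libraries were above the control mean and 4 were above the highest control, while 5 of 6 let-7e libraries were above the mean and 3 above the highest control. Control 3, with the highest vas deferens transcripts, had the lowest Cxcr4 of all libraries, 61 counts, for which the exact 95% Poisson interval of 46.7 to 78.4 counts covers counting error only. The means were 14.7 ± 6.23 CPM with let-7d, 11.7 ± 5.55 CPM with let-7e and 6.49 ± 3.50 CPM in controls. The early libraries of both let-7 groups were among those above the highest control, and no control is early. Late libraries averaged 12.1 ± 5.99 CPM with let-7d and 8.43 ± 3.01 CPM with let-7e (SD, n = 4 each).

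The fitted log2 difference of Cxcr4 was 0.84 (SE 0.384) for let-7d against control, given without a test. For let-7e against control it was 0.45 (SE 0.388), with an edgeR quasi-likelihood adjusted p of 0.712 and a 95% interval of -0.31 to 1.21. Let-7e against let-7d gave -0.39 (SE 0.345, adjusted p = 0.895, interval -1.07 to 0.29). The let-7d value was 0.52 without let-7d 6, and the let-7e value lay between 0.23 without control 3 and 0.75 without control 2 and was 0.29 without the 4 libraries with RNA of other organs or epithelium. Let-7e against let-7d gave -0.14 without let-7d 6.

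The early libraries had high Cxcr4, from 17.1 to 21.5 CPM. Late libraries ran from 2.03 to 20.6 CPM, and of these only let-7d 6 reached the early range. Early against late, a comparison added after these data had been seen, gave a log2 difference of 0.91 (SE 0.355) with an edgeR adjusted p of 0.115, where 2005 genes (12.2%) passed. Limma-voom with quality weights gave 0.88 with an adjusted p of 0.00744, and edgeR on the let-7 libraries alone gave 0.93 with an adjusted p of 0.03. The call thus depends on the fit. With the replicate number as a block, edgeR gave 0.19 (SE 0.7, adjusted p = 0.903). Let-7 libraries of the same number share a series, so the blocked value rests on their differences from same-numbered controls. Series and treatment are not confounded within the let-7 groups, but what the series stands for is not given in the labels.

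Ackr3, the scavenging receptor, was ordered between groups like Cxcr4. It ran from 47.5 to 83.5 CPM in let-7d libraries (median 56.4) and from 36.5 to 68.1 CPM in let-7e libraries (median 47.7), against 37.5, 64.7, 20.3, 32.1 and 38.6 CPM in controls 1, 2, 3, 4 and 6. The groups overlapped through control 2, which had the highest Ackr3 and the highest Cxcr4 of the controls, while control 3 had the lowest of both. All 6 let-7d libraries and 5 of 6 let-7e libraries were above the control mean, and 2 and 1 of them above control 2. Means were 62.3 ± 14.9 CPM with let-7d, 50.8 ± 11.2 CPM with let-7e and 38.7 ± 16.3 CPM in controls.

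Ackr3 had a fitted log2 difference of 0.63 (SE 0.257) for let-7d against control, as a description. For let-7e against control it was 0.34 (SE 0.255, edgeR adjusted p = 0.661, 95% interval -0.16 to 0.84), and for let-7e against let-7d -0.29 (SE 0.230, adjusted p = 0.876, interval -0.74 to 0.16). Early against late gave 0.17 (SE 0.242, adjusted p = 0.736, 95% interval -0.31 to 0.64). The let-7e value ranged from 0.18 without let-7e 3 and 0.19 without control 3 to 0.61 without control 2, and was 0.17 without the 4 libraries with RNA of other organs or epithelium. Let-7e against let-7d gave -0.16 without let-7d 6.

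Dpp4, the peptidase, had no ordered difference between groups. Let-7d libraries ran from 13.9 to 49.3 CPM (median 29.6) and let-7e libraries from 11.5 to 34.6 CPM (median 19.8), against 22.3, 30.4, 30.8, 21.5 and 26.3 CPM in controls 1, 2, 3, 4 and 6. The controls were the tightest group and lay inside the range of both let-7 groups. Means were 29.1 ± 12.3 CPM with let-7d, 20.9 ± 9.68 CPM with let-7e and 26.3 ± 4.36 CPM in controls. The fitted log2 difference was 0.03 (SE 0.346) for let-7d against control, a sign that turned under other settings. It was -0.41 (SE 0.333, edgeR adjusted p = 0.684, 95% interval -1.07 to 0.24) for let-7e against control and -0.45 (SE 0.309, adjusted p = 0.84, interval -1.05 to 0.16) for let-7e against let-7d. Leaving out single libraries moved the let-7e against control value between -0.69 without let-7e 4 and -0.27 without let-7e 5, and it was -0.21 without the 4 libraries with RNA of other organs or epithelium. The let-7e against let-7d value ran from -0.68 without let-7e 4 to -0.26 without let-7d 1 and was -0.16 in late libraries only.

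With edgeR, 0 of 16452 genes passed an adjusted p of 0.05 in any of the 3 group comparisons (0%), and so 0 of the 4 genes. For Cxcl12 this count is no test, since it was picked on these libraries. Groups that did not overlap in CPM were found for 104 genes (0.632%) in let-7e against control and 39 (0.237%) in let-7e against let-7d, and for 0 of the 4 in either. At an unadjusted p under 0.05 the background was 1676 genes (10.2%) for let-7d against control, 1729 (10.5%) for let-7e against control and 1097 (6.67%) for let-7e against let-7d. Limma-voom also called 0 genes in each, while the DESeq2 Wald test called 10, 15 and 14. Cxcl12 was among the 10 with let-7d, the comparison for which it was picked, so nothing is read from that call. Comparisons that share the controls or the let-7d libraries are not independent of each other.

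**Figure D2:**
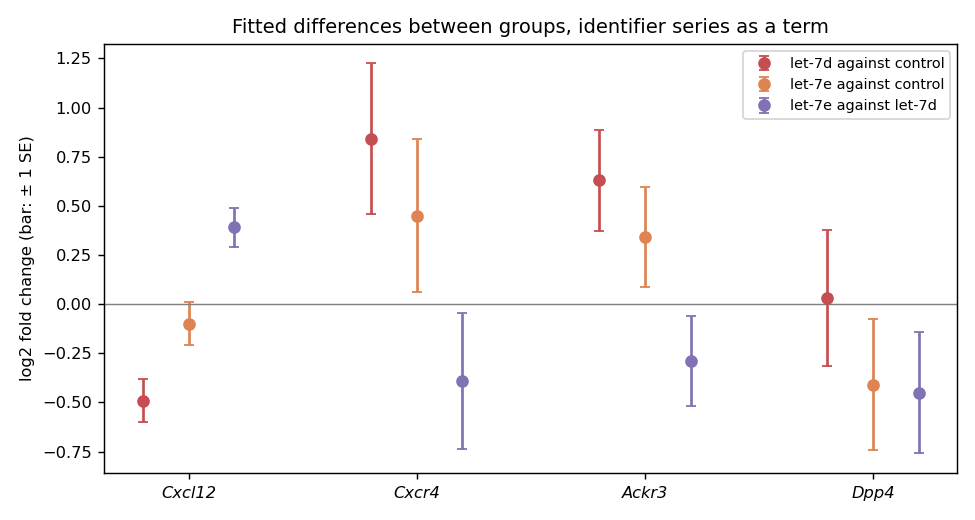
Fitted log2 difference of each gene in each comparison, on the vertical axis, with bars of 1 SE to each side and a line at 0; comparisons stand side by side for each gene. Cxcr4 and Ackr3 have positive values against controls in both let-7 groups (0.84 and 0.63 with let-7d), while Cxcl12, chosen for the let-7d comparison, stands at -0.49 there.

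The balance of ligand and receptors was taken as a ratio of levels per kilobase of the union of exons. Which gene stands higher can depend on that length. Let-7d libraries averaged 16.6 for Cxcl12 and 18.6 for Ackr3 with the union, and 24.1 and 20.3 with the longest transcript. The ratio of Cxcl12 to Ackr3 ran from 0.617 to 1.28 in let-7d libraries (mean 0.936 ± 0.268), from 1.05 to 2.19 in let-7e libraries (1.52 ± 0.516) and from 1.15 to 4.08 in controls (2.52 ± 1.07). The let-7d and control ranges overlapped, and Cxcl12 was chosen on this contrast, so the ratio carries no test. The ratio of Cxcl12 to Cxcr4 averaged 2.56 ± 1.64 with let-7d, 4.53 ± 3.17 with let-7e and 9.69 ± 7.10 in controls, where control 3 alone was at 22.0. Ackr3 to Cxcr4 averaged 2.55, 2.83 and 3.61 in the same 3 groups. These means pool early and late let-7 libraries, while all controls are late. Late let-7d and let-7e libraries averaged 1.05 and 1.73 for Cxcl12 to Ackr3, and 3.18 and 5.92 for Cxcl12 to Cxcr4. For Ackr3 to Cxcr4 they averaged 2.9 and 3.44, against 1.73 over the early libraries.

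Over the 17 libraries, Cxcr4 and Ackr3 levels went together. Pearson's r of their log2 CPM was 0.82 (permutation p = 0.00011, Spearman's rho 0.76), with an adjusted p of 0.0055 over a family of 50 relations. Without the 2 libraries farthest from the median of Ackr3, r was 0.65. Within the 13 late libraries it was 0.85 (adjusted permutation p = 0.023), and with each group's mean subtracted 0.73 (adjusted permutation p = 0.0395). Without the 4 libraries with RNA of other organs or epithelium it was 0.68 and no longer passed (adjusted permutation p = 0.099). Early libraries are too few for a value of their own.

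For Cxcl12, which was picked for a difference between groups, correlations over all groups are a description and carry no p. Its r with Cxcr4 was -0.70 (rho -0.82) over the 17 libraries, and -0.80 without the 4 libraries with RNA of other organs or epithelium. With group means subtracted the relation did not pass (r = -0.56, adjusted permutation p = 0.149). Within the late libraries, which still hold every group, r was -0.52, likewise as a description. Cxcl12 with Ackr3 gave an r of -0.58 (rho -0.71) over the 17 libraries and -0.24 with group means subtracted, which did not pass (adjusted permutation p = 0.646).

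**Figure D3:**
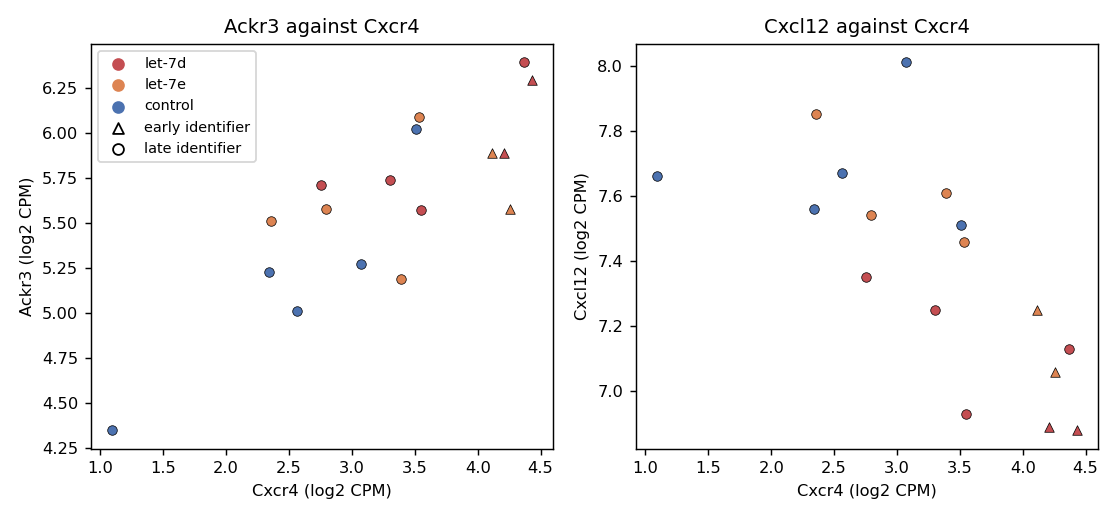
Log2 CPM of pairs of the genes against each other, 1 symbol per library, coloured by group, with triangles for early and circles for late libraries. Cxcr4 and Ackr3 lie along a rising line (r = 0.82), with control 3 at the low end, and Cxcl12 and Cxcr4 along a falling one (r = -0.70).

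The promoters of the correlated receptor pair are shown for that reason, from RefSeq (GRCm38.p6), 250 bases before the gene's start and 50 after, with matches to TATAAAA in capitals.
Cxcr4 promoter (chr1:128592250-128592549, minus strand): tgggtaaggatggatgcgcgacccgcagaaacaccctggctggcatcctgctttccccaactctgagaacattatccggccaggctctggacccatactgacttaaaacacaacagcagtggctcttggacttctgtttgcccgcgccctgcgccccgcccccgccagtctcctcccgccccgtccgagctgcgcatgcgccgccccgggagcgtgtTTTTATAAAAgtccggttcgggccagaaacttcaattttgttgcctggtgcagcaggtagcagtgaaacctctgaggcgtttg
Ackr3 promoter (chr1:90203730-90204029, plus strand): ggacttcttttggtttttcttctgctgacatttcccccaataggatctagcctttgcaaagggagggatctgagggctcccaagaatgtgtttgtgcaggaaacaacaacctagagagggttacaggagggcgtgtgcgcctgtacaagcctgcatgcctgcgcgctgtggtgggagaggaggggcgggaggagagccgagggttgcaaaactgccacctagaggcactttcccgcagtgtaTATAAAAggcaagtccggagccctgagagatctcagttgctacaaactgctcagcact
TATAAAA, searched on both strands and chosen after the sequences had been seen, has 2 overlapping matches in the Cxcr4 promoter, on opposite strands. The first begins at position -33 from the start and is on the strand opposite to the gene. The match on the gene's own strand begins within it. The Ackr3 match is on the gene's own strand and begins at -8. The Dpp4 promoter has 1 match, at -227, the Cxcl12 promoter has 0, and 1801 of 32851 promoters of this length have at least 1 (5.48%). ACGTG, the core that hypoxia-inducible factors recognise, was found on either strand in 0 of the 4 promoters and in 19.6% of all. These are matches of letters in a short window, from which nothing follows about binding.

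Cell types that can hold these transcripts were followed by marker lists, each as the mean log2 CPM of its genes. Stromal progenitor markers, such as Pdgfra and Dcn, stood at 7.72 to 8.28 in let-7d libraries, 7.65 to 8.32 in let-7e libraries and 7.79 to 8.18 in controls, all 3 ranges overlapping. Endothelial markers, such as Pecam1 and Cdh5, stood at 6.47 to 7.28 with let-7d, 6.82 to 7.38 with let-7e and 6.57 to 7.29 in controls. In the fits against controls, 9 of 10 were higher with let-7d (median log2 difference 0.10) and 10 of 10 with let-7e (0.32). Over all genes 42.5% and 41.9% were higher, and 0 of the 10 passed in either. In let-7e against let-7d 9 of 10 were higher (0.20), and early against late 0 of 10 (-0.28). Committed preadipocyte markers stood at 5.89 to 6.63 with let-7d, 6.07 to 6.55 with let-7e and 6.30 to 6.45 in controls. By median, the genes of this list ran from Dlk1 at 1.30 CPM to Fabp4 at 15090 CPM. In whole fat the list need not follow preadipocytes alone. Macrophage markers ran from 5.88 to 6.82 with let-7d, 5.81 to 6.65 with let-7e and 5.48 to 6.46 in controls. The part of these cells in the levels of the 4 genes was not tested beyond the correlations that follow.

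Cxcl12 had an r of 0.55 with the committed preadipocyte list, 0.47 with endothelium and 0.41 with stromal progenitors over the 17 libraries. With group means subtracted these were 0.60, 0.59 and 0.62, and none passed (adjusted permutation p = 0.1, 0.102 and 0.1). Within the late libraries they were 0.19, 0.00 and 0.23, and without the 4 libraries with RNA of other organs or epithelium 0.73, 0.74 and 0.48. Cxcr4 leaned low where committed preadipocyte markers were high. Over the 17 libraries rho passed (-0.77, adjusted permutation p = 0.0102) and r did not (-0.64, adjusted permutation p = 0.0842). Within the late libraries r was -0.48 (adjusted permutation p = 0.322), and with group means subtracted -0.62 (adjusted permutation p = 0.1). Early libraries averaged 19.0 CPM of Cxcr4 and late ones 8.82. The list stood at 5.89 to 6.25 in early and 6.14 to 6.63 in late libraries. The relation over the 17 libraries was thus not separated from early against late. The r of Cxcr4 with the pericyte and smooth muscle list was -0.68 (adjusted permutation p = 0.0842). With group means subtracted it was -0.67, which passed (adjusted permutation p = 0.0395). It was -0.22 without the 2 libraries farthest from the median of 5.64, control 3 at 8.18 and let-7d 5 at 6.44, so the relation rests on these libraries. Lymphocyte markers, another site of Cxcr4, had an r of -0.01 with it, and the macrophage list had 0.42, or 0.19 without the 4 libraries.

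For Dpp4, no relation with a marker list passed over the 17 libraries. Its r with the adipocyte list was -0.53 (permutation p = 0.0301, adjusted p = 0.167) and -0.25 without the 2 libraries farthest from the median. Its r with the mesothelial list, the fat pad's surface layer, which holds Msln and Upk3b, was 0.51 over all 17 libraries (permutation p = 0.0355, rho 0.52) and did not pass (adjusted p = 0.177). Without the 4 libraries with RNA of other organs or epithelium it was 0.95 over 13 (permutation p = 1e-05, the smallest that 100000 permutations can give, adjusted p = 0.0005), and within the late libraries it was 0.79 (adjusted permutation p = 0.04). With group means subtracted it was 0.51 (adjusted permutation p = 0.193). With interstitial progenitor markers, such as Pi16 and Cd55, Dpp4 had an r of 0.31. Mesothelial markers stood at 2.17 to 4.90 log2 CPM with let-7d, 1.72 to 5.10 with let-7e and 2.83 to 4.48 in controls. Dpp4 also spread more widely in the let-7 groups. Its highest value of all, 49.3 CPM, was in let-7d 1, where mesothelial markers were lowest of the let-7d group and epithelial markers highest of all libraries (6.22). The r of Dpp4 with the epithelial list was 0.35 (adjusted permutation p = 0.457).

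**Figure D4:**
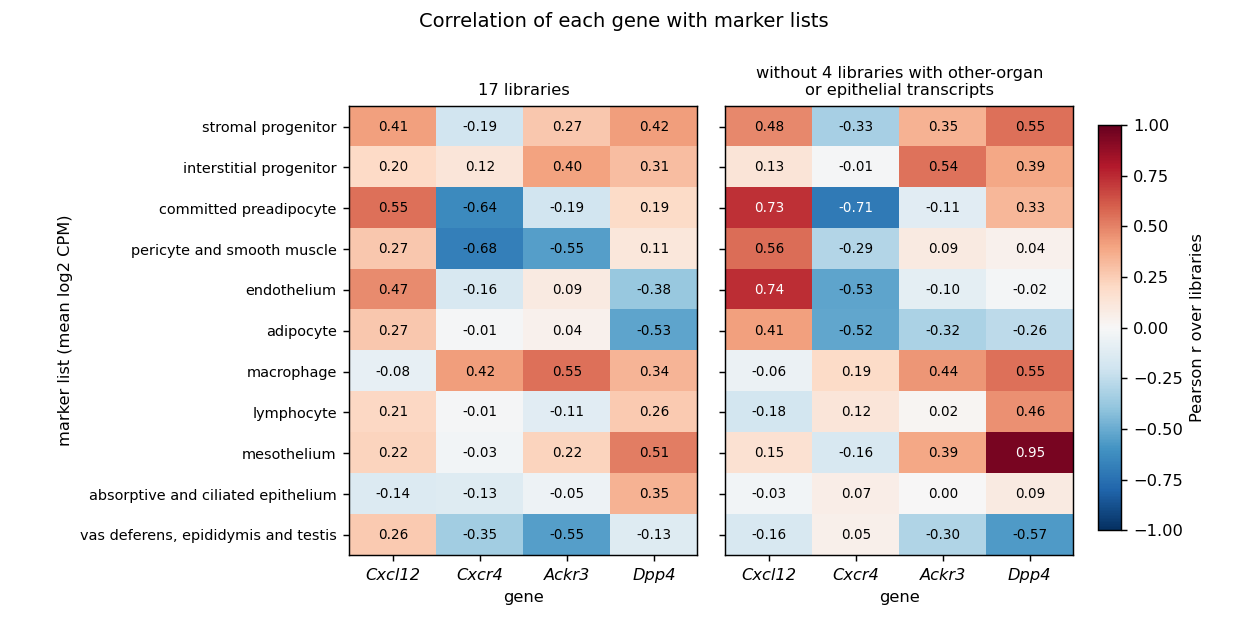
Pearson r of each gene's log2 CPM with the mean log2 CPM of 11 marker lists, over 17 libraries on the left and over 13 on the right, with red for positive and blue for negative values. Dpp4 and mesothelium stand at 0.51 on the left and 0.95 on the right, and Cxcr4 and smooth muscle at -0.68 and -0.29.

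The genes most like each of the 4 across libraries were ranked by Pearson r of log2 CPM over 17 libraries among 13157 genes, as a description in which all points share library and depth. For Cxcl12 these were Id1, an inhibitor of differentiation factors that answers to BMP signals, at 0.92, Ip6k1, an inositol phosphate kinase, at 0.91, and Plpp1, Klhl21 and Foxk1 at 0.89 each. The lowest were Wrb and Nfib at -0.89 and Rab1a at -0.88. For Cxcr4 they were Prrg1 at 0.93, Pcdh19, a protocadherin, at 0.90, Tnfaip3, a brake on NF-kappaB, at 0.90, Fam126a at 0.90 and Zeb2, a zinc-finger repressor, at 0.89, with Gtpbp1 at -0.93, Tcn2 at -0.91 and Wdr24 at -0.89 at the other end.

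For Ackr3 the most alike were Angpt2, the angiopoietin of growing vessels, at 0.92, Tppp3 at 0.91, Sirpa, an inhibitory receptor of myeloid cells, at 0.86, and Zfpm2 and Cabp1 at 0.85, and Cxcr4 itself was at rank 15. Its least alike were Klhdc2 and Chrnb2 at -0.87 and Bzw2 at -0.85. For Dpp4 they were Tuft1 at 0.89, Tns3 at 0.88, Pdpn, the podoplanin of mesothelium and stroma, at 0.88, and Fibin and Pdlim1 at 0.86, with Ppp1r1a, Tmem120a and Vdac3 at -0.78.

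The rest of the pathway was read from lists of known partners. Of 8 measured other ligands of these receptors, 3 were higher and 5 lower in let-7d libraries (median log2 difference -0.04) and 4 and 4 in let-7e libraries (0.05), against controls. The 3 most abundant per kilobase were Ubb, a polyubiquitin whose ubiquitin is an extracellular CXCR4 ligand, Pf4, a platelet chemokine, and Mif, a cytokine that binds CXCR4. Ubb averaged 338 ± 56.1 CPM with let-7d, 431 ± 71.6 CPM with let-7e and 393 ± 59.9 CPM in controls, and its let-7e difference of 0.25 (SE 0.113) did not pass (edgeR adjusted p = 0.459). Early against late, Ubb gave -0.39 (SE 0.110, edgeR adjusted p = 0.0304), where 12.2% of all genes passed. Pf4 and Mif had let-7e differences of 0.20 and -0.34, with edgeR adjusted p of 0.755 and 0.597.

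Downstream of CXCR4, 21 of 35 measured signalling genes were higher and 14 lower with let-7d (median 0.06), and 27 were higher and 8 lower with let-7e (median 0.09), while over all genes 42.5% and 41.9% were higher and the median was -0.04 in both. The most abundant were Cav1, the coat protein of caveolae, Cd74, a receptor for MIF that pairs with CXCR4, and Cdc42, a GTPase of cell migration. Cav1 averaged 3150 ± 546 CPM with let-7d, 3190 ± 312 CPM with let-7e and 2450 ± 486 CPM in controls, and its let-7e difference of 0.36 (SE 0.158) did not pass (edgeR adjusted p = 0.447). Cd74 and Cdc42 had let-7e differences of 0.08 and 0.12.

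Among other proteases that can cut CXCL12, 8 of 16 were higher with let-7d (median -0.01) and 10 of 16 with let-7e (0.03). Ctss and Ctsk, cathepsins, and Mmp2, a gelatinase, led this list by level, at let-7e differences of 0.03, 0.19 and 0.28. Of 22 genes for the heparan sulfate matrix to which CXCL12 binds, 16 were higher and 6 lower in both comparisons, with a median of 0.13 in each. Hspg2, the basement membrane proteoglycan perlecan, averaged 933 ± 325 CPM with let-7d, 1170 ± 434 CPM with let-7e and 1000 ± 294 CPM in controls, and Sulf2, a sulfatase that trims heparan sulfate, and Col18a1 followed it. Early against late, Hspg2, Sulf2 and Col18a1 fell by 0.93, 0.53 and 0.83 on the log2 scale (edgeR adjusted p = 0.00673, 0.0332 and 0.0168), among 8 of 22 matrix genes that passed, 7 of them lower in early libraries, where 2005 of all 16452 genes passed (12.2%) and 1106 were lower.

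Of 18 factors known to control Cxcl12, 9 were higher with let-7d (median -0.01) and 12 with let-7e (0.06). Epas1, the hypoxia-inducible factor HIF-2 alpha, averaged 508 ± 118 CPM with let-7d, 608 ± 126 CPM with let-7e and 672 ± 129 CPM in controls, with log2 differences of -0.24 (SE 0.142) for let-7d and 0.03 (SE 0.143) for let-7e. Early against late it fell by 0.58 (SE 0.141, edgeR adjusted p = 0.0115), and Klf2, an endothelial flow-responsive factor, fell by 1.07 (SE 0.312, adjusted p = 0.0334), while Cebpb at -0.45 did not pass (adjusted p = 0.174).

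The remaining chemokine genes were counted in the same way. Of 20 measured other chemokines, 16 were higher and 4 lower with let-7d (median 0.19), and 9 were higher and 11 lower with let-7e (median -0.03), where 42.5% and 41.9% of all genes were higher. Of 14 other chemokine receptors, 11 were higher and 3 lower with let-7d (0.17), and 6 and 8 with let-7e (-0.11). In let-7e against let-7d directly, 5 of 20 chemokines and 3 of 14 receptors were higher, where 46.9% of all genes were. The medians were -0.17 and -0.22, where all genes had -0.01. Of the macrophage markers, 10 of 10 were higher with let-7d against control (median 0.24), 8 of 10 with let-7e against control (0.15) and 2 of 10 in let-7e against let-7d (-0.06). Lymphocyte markers, at a median level of 0.68 log2 CPM, went the other way against controls. Of these, 0 of 11 were higher with let-7d (median -0.45), 0 of 11 with let-7e (-0.92) and 1 of 11 in let-7e against let-7d (-0.38). Single libraries weigh on this list: control 6 stood at 2.30, where the control median was 0.74, and let-7d 2 was highest of all at 2.36. Some of its genes are near the floor, such as Cd8a at a median of 0.458 CPM. The part of these cells in the chemokine values was not tested. With edgeR, 0 genes of any of these lists passed in a group comparison. The most abundant chemokines, Ccl6, Ccl11 and Ccl9, differed by 0.23, 0.03 and 0.21 with let-7d and by 0.05, 0.27 and 0.05 with let-7e. Ccr2, the monocyte receptor, averaged 38.4 ± 19.6 CPM with let-7d, 31.3 ± 8.19 CPM with let-7e and 25.5 ± 14.6 CPM in controls, and the atypical receptors Ackr1 and Ackr2 differed by -0.02 and 0.51 with let-7e (edgeR adjusted p = 0.988 and 0.704).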

How the data were processed

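RNA was sequenced from whole eWAT of 17 mice. The deposited table holds whole-number read counts per Ensembl gene, which the authors had filtered by CPM at a threshold not given in the sources used here. Per the submitters' processing notes, reads were aligned with STAR to GRCm38.p6; the counting tool and strand setting are not given in the sources used here. A second deposited table named as RPKM was not used: the gene lengths it implies did not correlate between libraries (r between -0.0283 and 0.0371 over 16031 genes). All 17 columns of the count table matched a sample, so 0 columns were left aside.

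Identifiers were matched to GENCODE M21 symbols for 16438 of 16452 genes. Counts were scaled by TMM, filterByExpr removed 0 genes, and edgeR 4.0.16 in R 4.3.3 fitted its quasi-likelihood test to all libraries with group and identifier series as terms. P-values are two-sided and Benjamini-Hochberg adjusted over 16452 genes, with a threshold of 0.05. Intervals are 95%. Limma 3.58.1 and DESeq2 1.42.0 served as alternatives. The fit was tested on simulated data. Correlations used 100000 two-sided permutations in Python with scipy 1.17.1 and numpy 2.4.6, adjusted over 50 relations.

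The 4 genes, the lists and the tests were chosen with earlier results of these data known; the lists come from textbook knowledge. Named besides the 4 genes are the 3 most abundant genes per kilobase of each pathway list and, for each of the 4, the 5 genes with the highest and the 3 with the lowest r, predicted genes and those averaging under 1 CPM left aside. Passing only in early against late was no reason to name a list gene, though some genes named for their level did pass there. Protein sequences were not used here. Sequences came from RefSeq and, for the 3′ site, from the GRCm38 reference with GENCODE M21; miRNAs and promoters matched for both let-7 strands and all 4 genes.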

Additional observations from a re-analysis of the deposited data

Results flagged for a closer look

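In 1 of 12 combinations of gene and group examined, a library stood far from the rest of its group: Cxcl12 in control 6, at 257.6 CPM, where the other 4 controls lay between 182.5 and 202.9 CPM. Its gap to the nearest control, as a share of the group's range, was over Dixon's 95% critical value, which chance passes in about 1 in 20 groups. Control 6 is also the library with spermatid transcripts and with lymphocyte markers at 2.30 log2 CPM, against a median of 0.74 in controls, and their part in its Cxcl12 level was not tested. Without it, the log2 difference of Cxcl12 from controls was -0.39 with let-7d and 0.00 with let-7e.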

How the results depend on the processing

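Over 26 alternatives per group comparison, Cxcr4 and Ackr3 kept a positive log2 difference from controls in both let-7 groups, and Cxcl12 a negative one with let-7d, from -0.61 to -0.39. Cxcl12 with let-7e reached 0.03 without the 4 libraries that hold RNA of other organs or epithelium. Dpp4 with let-7d turned to -0.11 in late libraries only and -0.10 in fits of the compared groups only, and ran from -0.06 to 0.24 with 1 library left out; early against late it was -0.07 without the 4 libraries and -0.03 to 0.52 with 1 left out. The cause of these turns was not tested. With the replicate number as a block, the differences from controls of Cxcr4 and Ackr3 were 1.23 and 1.08 with let-7d and 0.94 and 0.79 with let-7e, and Cxcl12 with let-7d was -0.61. Early against late, the block left 44 called genes (2659 unadjusted) and gave Ackr3 -0.66 and Cxcr4 0.19 (edgeR adjusted p = 0.903). In this fit the series does not vary between let-7 libraries of the same number, so these values rest on comparisons with the controls. Same-numbered libraries correlated at -0.330 to 0.496. Between the let-7 groups, replicates 1, 2 and 3 correlated best with their own number (0.496, 0.171 and 0.111) and 4, 5 and 6 did not. Replicates 1 and 2 are early in both let-7 groups, and only group means were subtracted. A shared series and a pairing of animals therefore cannot be told apart for them, and the labels state no pairing.

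Called genes stayed at 0 in group comparisons except with the DESeq2 Wald test, which called 10 with let-7d, 15 with let-7e and 14 between the let-7 groups. Genes at an unadjusted p under 0.05 numbered 1071 with let-7d and 1004 with let-7e at a mean of at least 5 CPM, where fewer genes are tested, and 967 and 916 in fits of the compared groups only. With let-7e they were 1119 in late libraries only and 1123 without the 4 libraries. With 1 library left out they ran from 1052 (let-7d 3) to 2713 (control 2) with let-7d, from 1194 (control 3) to 2739 (control 2) with let-7e, and from 627 (let-7d 1) to 1566 (let-7d 2) between the let-7 groups. Early against late, limma-voom called 3513 genes, and leaving out 1 library 1263 (let-7d 1) to 2326 (control 3). As to depth, the lowest count of the 4 genes in any library was 61.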
